A study of Emberiza bruniceps with 4 samples.

Results

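The interaction of season and gonadal state was studied in hypothalamic RNA of the red-headed bunting (Emberiza bruniceps), a migratory songbird. It is the extent to which the difference between castrated and intact birds in spring departs from the same difference in autumn. Wild-caught birds formed 4 groups, intact or castrated in spring and intact or castrated in autumn, and each group was sequenced as 1 library. The sources used here do not give the number of birds in a library, their age or sex, or the interval between castration and sampling. For each gene the castrated library was divided by the intact library within each season, and the spring ratio was divided by the autumn ratio. The log2 of this ratio of ratios is called the interaction. It is positive where castrated birds stood relatively higher in spring than in autumn, and the same number is the season difference of castrated birds minus that of intact birds. Of 11945 genes with a matched flycatcher protein, 8970 had a mean of at least 5 CPM (counts brought to one library total and corrected for library composition) and were studied. Levels are listed throughout in the order intact in spring, intact in autumn, castrated in spring, castrated in autumn.

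The hypothalamus reads day length and gonadal steroids and sets the release of pituitary gonadotropins. In photoperiodic birds, long days act through thyrotropin on cells lining the ventricle, where type II deiodinase (DIO2) produces active thyroid hormone and thereby opens the gonadotropin axis. Gonadal steroids feed back on the same circuits, and castration removes that feedback. A gene on which the feedback acts in one season alone would show an interaction of season and gonadal state.

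All 4 libraries enter every interaction, so the model of season, gonadal state and their product has no residual degree of freedom and no test is possible. An interaction of at least 1 in size, a 2-fold ratio of ratios, was used as a rule of size. Ranges in brackets are 95% intervals for counting error only, and they say nothing about differences between birds. The libraries held 16840270 to 26213011 estimated counts, the deepest being autumn castrated, and 39.1 to 41.7% of them lay on contigs matched to a protein. Markers of neighbouring tissue divided the libraries by gonadal state. The summed level of 19 telencephalon markers was 5225, 5649, 534 and 565 CPM, and that of 16 thalamus, midbrain and hindbrain markers was 91.5, 94.0, 887 and 620 CPM. The median interaction of the telencephalon markers was -0.00. For the hypothalamus itself, the summed level of 10 regional genes lay between 183 and 228 CPM. Single members differed by gonadal state in both directions. LHX1 stood at 15.1, 14.2, 59.0 and 37.6 CPM, and SIX3 at 10.3, 7.43, 2.58 and 4.06 CPM. Under 5 CPM, NR5A1 had 2, 0, 113 and 33 counts, and ISL1 48, 39, 3 and 10. The sum therefore does not show that each library held the same part of the hypothalamus.

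Most genes differed between castrated and intact birds to a like extent in both seasons. The interaction had a median of -0.02 and a standard deviation over genes of 0.73, and 88.5% of genes stayed within 2-fold. A positive interaction of at least 2-fold was found for 442 genes (4.93% of those studied) and a negative one for 592 genes (6.6%). At 4-fold the numbers were 90 and 96. The counting interval lay wholly beyond 2-fold for 178 of the positive and 215 of the negative genes. With plain library totals in place of the composition scaling, which raised the median of all genes to 0.18, the counts became 698 positive and 372 negative, so the balance of the 2 directions depends on the scaling.

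A positive interaction can arise in several ways, and the genes fell into classes by which season held the difference. Of the 442 positive genes, 145 were at least 2-fold lower in castrated than in intact birds in autumn alone, 108 were at least 2-fold higher in spring alone, and 22 did both. Among the 592 negative genes the commonest class, with 274, was at least 2-fold higher in castrated birds in autumn alone. Another 112 were at least 2-fold lower in spring alone, and 5 did both. Neither season reached 2-fold by itself in 115 positive and 118 negative genes. Genes with an interaction were less abundant than others, with a median of 16.4 CPM against 46.3 CPM over all genes, and 59 of them had fewer than 10 counts in at least 1 library. Among the 1794 least abundant genes 12% were positive and 14.3% negative, and among the 1794 most abundant 1.06% and 2.62%. At the abundance limit, KAT8 regulatory NSL complex subunit 1-like protein lay just inside with 5.0 CPM and an interaction of 0.50, and mas-related G-protein coupled receptor member A8-like just outside with 4.998 CPM and -0.22.

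**Figure D1:**
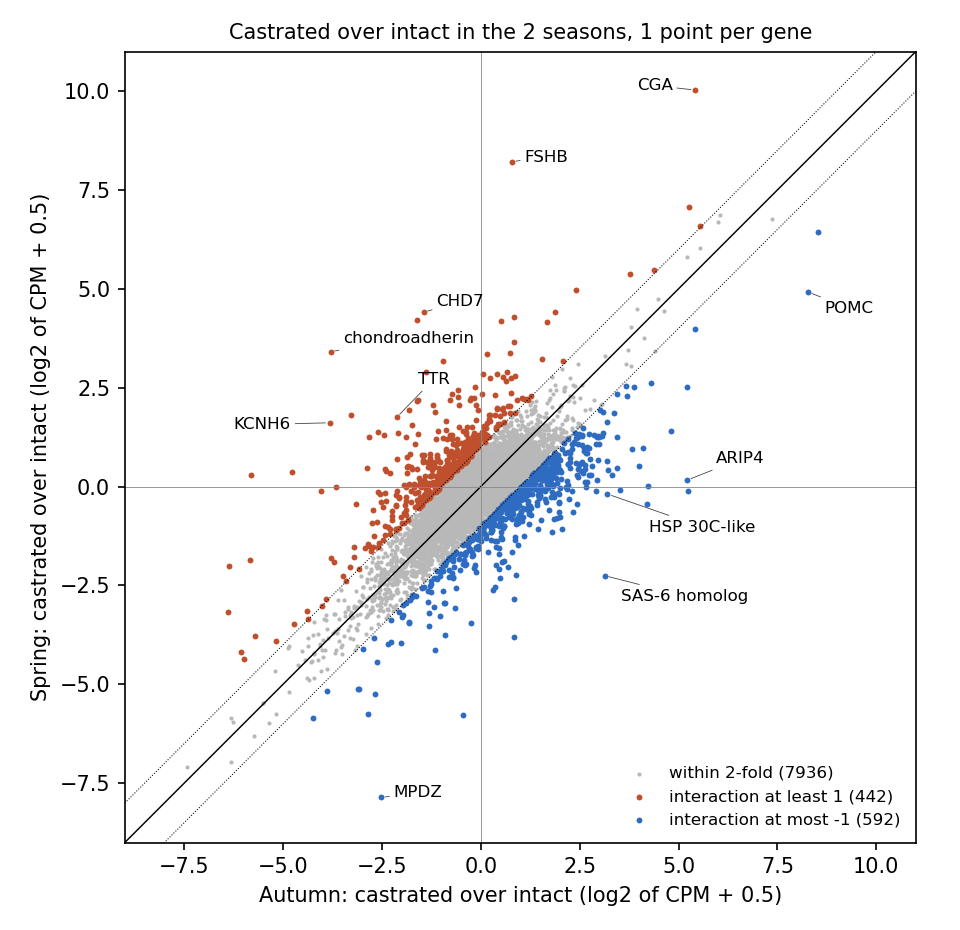
Log2 ratio of castrated over intact in spring (vertical) against that in autumn (horizontal), 1 point for each of the 8970 genes. The solid line marks equal ratios and the dotted lines the 2-fold limits, with 442 genes above (red) and 592 below (blue). Chondroadherin, CHD7, TTR and KCNH6 lie in the upper left quadrant, higher with castration in spring and lower in autumn.

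Sorting the 4 levels of each gene and dividing them at the widest gap shows which library or pair stood apart. In 210 of the 592 negative genes (35.5%) the autumn castrated library stood alone at the top, a profile held by 10.9% of all genes. The autumn intact library stood alone at the bottom in 111 negative genes, 18.8% of them against 6.42% of all genes. Spring castrated stood alone at the bottom in 80 (13.5% against 4.88%). Spring intact stood alone at the top in 64 (10.8% against 5.85%). Positive genes were spread more evenly, with spring intact lowest in 101, autumn intact highest in 97, autumn castrated lowest in 95 and spring castrated highest in 51. These made up 22.9, 21.9, 21.5 and 11.5% of positive genes. In the same order, the profiles were held by 5.28, 4.72, 9.01 and 7.86% of all genes. A crossed pattern, in which 2 libraries that share neither season nor gonadal state stood together above the other 2, was seen in 50 positive genes (spring castrated with autumn intact) and 46 negative genes (spring intact with autumn castrated). These crossed profiles made up 1.51% and 1.28% of all genes. In most genes with an interaction, then, 1 library stood apart from the other 3. Such profiles were common among all genes too. The sign of the interaction decides which of the single-library and crossed profiles a gene can have. Their shares among positive or negative genes are therefore raised by construction. Choosing genes by the interaction also disfavours splits by season or gonadal state alone, so no conclusion is drawn from these shares.

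**Figure D2:**
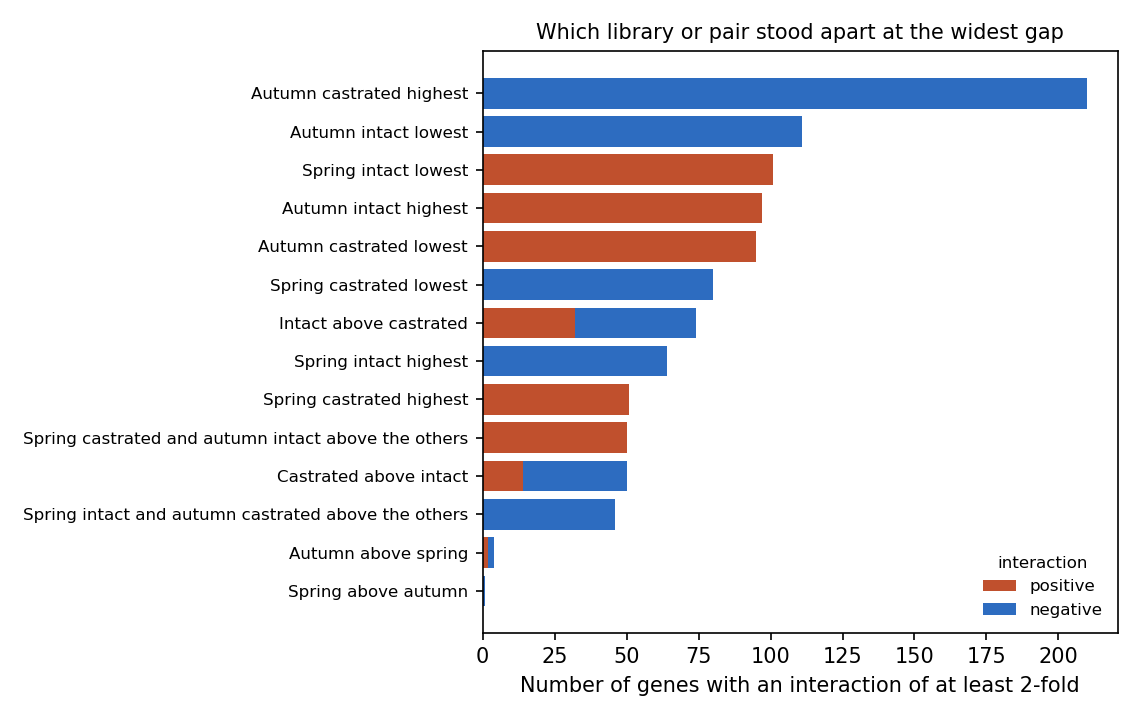
Number of genes with an interaction of at least 2-fold, by the library or pair of libraries set apart at the widest gap in log2 level. Red bars count positive and blue bars negative interactions. The longest bar is the 210 negative genes with autumn castrated highest.

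Genes of the choroid plexus, the secretory epithelium of the brain ventricles, were among those with the widest positive interactions. Transthyretin (TTR), which carries thyroid hormone and retinol into the cerebrospinal fluid, stood at 239, 7622, 805 and 1746 CPM. Castrated birds were thus above intact birds in spring and below them in autumn, and the interaction was 3.88 (3.80 to 3.96), or 2.30 on the most abundant of its 4 contigs alone. KCNJ13, an inward rectifier potassium channel of the plexus epithelium, had 7, 571, 32 and 75 counts and an interaction of 5.09 (4.35 to 6.74). The sulfate transporter SLC13A4 stood at 19.7, 230, 101 and 139 CPM (3.05, 2.80 to 3.36; 1.46 on its most abundant contig). Klotho (KL), a co-receptor for fibroblast growth factor 23, stood at 13.1, 76.2, 9.59 and 8.12 CPM (2.72, 2.21 to 3.33). For TTR, KCNJ13, SLC13A4 and KL the autumn intact library was the highest of the 4. The cation channel TRPM3 followed with 1.45, and its levels of 139, 452, 57.8 and 68.8 CPM were lower in castrated birds in both seasons.

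Most other plexus markers did not share that profile. SLC4A5 was highest in the autumn intact library too, at 32.2, 50.2, 40.4 and 35.9 CPM, with an interaction of 0.80. Of 15 measured, 5 had a positive and 3 a negative interaction of at least 2-fold, beside 4.93% and 6.6% of all genes. The median of the 15 was 0.28. The water channel aquaporin-1 (31.2, 25.7, 20.5 and 41.6 CPM; -1.28, or -0.73 in the authors' TPM) and the cotransporter SLC12A2 (250, 136, 282 and 341 CPM; -1.15, or -0.94 with library totals) were highest in the autumn castrated library, and SULF1, a sulfatase acting on heparan sulfate, had -1.13. ENPP2, the lysophospholipase D autotaxin, was higher in castrated birds in both seasons, at 301, 428, 805 and 752 CPM, with 0.60. The summed level of the 15 markers was 1384, 9412, 2363 and 3357 CPM, which is dominated by TTR. In bulk tissue a larger number of cells of a type and more RNA per cell cannot be told apart, and neither can a larger piece of plexus in a library.

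Several genes outside the plexus list had the same profile, with autumn intact far above the rest. Chondroadherin, a leucine-rich matrix protein of cartilage, rested on 24, 4196, 278 and 407 counts, or 3.29, 567, 39.8 and 40.3 CPM. Its interaction of 7.21 (6.77 to 8.0) had the counting interval farthest from 0 among genes with at least 10 counts in each library. The 2 castrated libraries were nearly equal, so the season difference lay in the intact birds. Serotransferrin (TF), the iron carrier of plasma that oligodendrocytes and plexus epithelium also make, stood at 354, 7478, 490 and 1026 CPM (3.33, 3.26 to 3.41). Androgen-dependent TFPI-regulating protein, named for its response to androgen in human cells, had 16, 288, 14 and 19 counts (3.94, 3.0 to 5.43). In these 3 genes the autumn intact library again stood alone.

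Listed cilia genes of the ependyma, the cell layer that lines the ventricles, also leaned to positive interactions. Of 20 measured, 7 reached 2-fold upward and 2 downward, 16 lay above 0 and the median was 0.80. The backgrounds are 4.93% and 6.6%. A wider family of dyneins and cilia proteins, collected by protein name and sharing members with that list, leaned less. Of its 39 measured genes, 7 were positive, 3 negative and 29 above 0. Its median was 0.22, and -0.001 at the lowest among the settings tried. FOXJ1, the regulator of motile cilia, stood at 9.18, 28.8, 15 and 11.6 CPM (1.96, 1.47 to 2.56). CFAP61, a part of the ciliary radial spoke machinery, had 9.73, 46.6, 26.6 and 21.8 CPM (2.49, 2.08 to 3.0), and the radial spoke protein RSPH1 7.40, 22.4, 19.2 and 17.2 CPM (1.69). All 3 were highest in the autumn intact and lowest in the spring intact library. Against this, CFAP54 (-1.18) and the dynein chain DNAI2 (-1.06) were lower in autumn than in spring in intact birds, but the most abundant contig of CFAP54 alone gave 4.41 and DNAI2 lay at -0.87 with library totals. The summed level of the list was 445, 773, 383 and 414 CPM. The summed plexus level rose with the cilia genes from the spring to the autumn intact library, from 1384 to 9412 CPM. Most of that rise was TTR, from 239 to 7622 CPM. The median spring over autumn log2 difference of the 15 plexus markers in intact birds was -0.11. The part of plexus tissue in the cilia result was not tested.

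**Figure D3:**
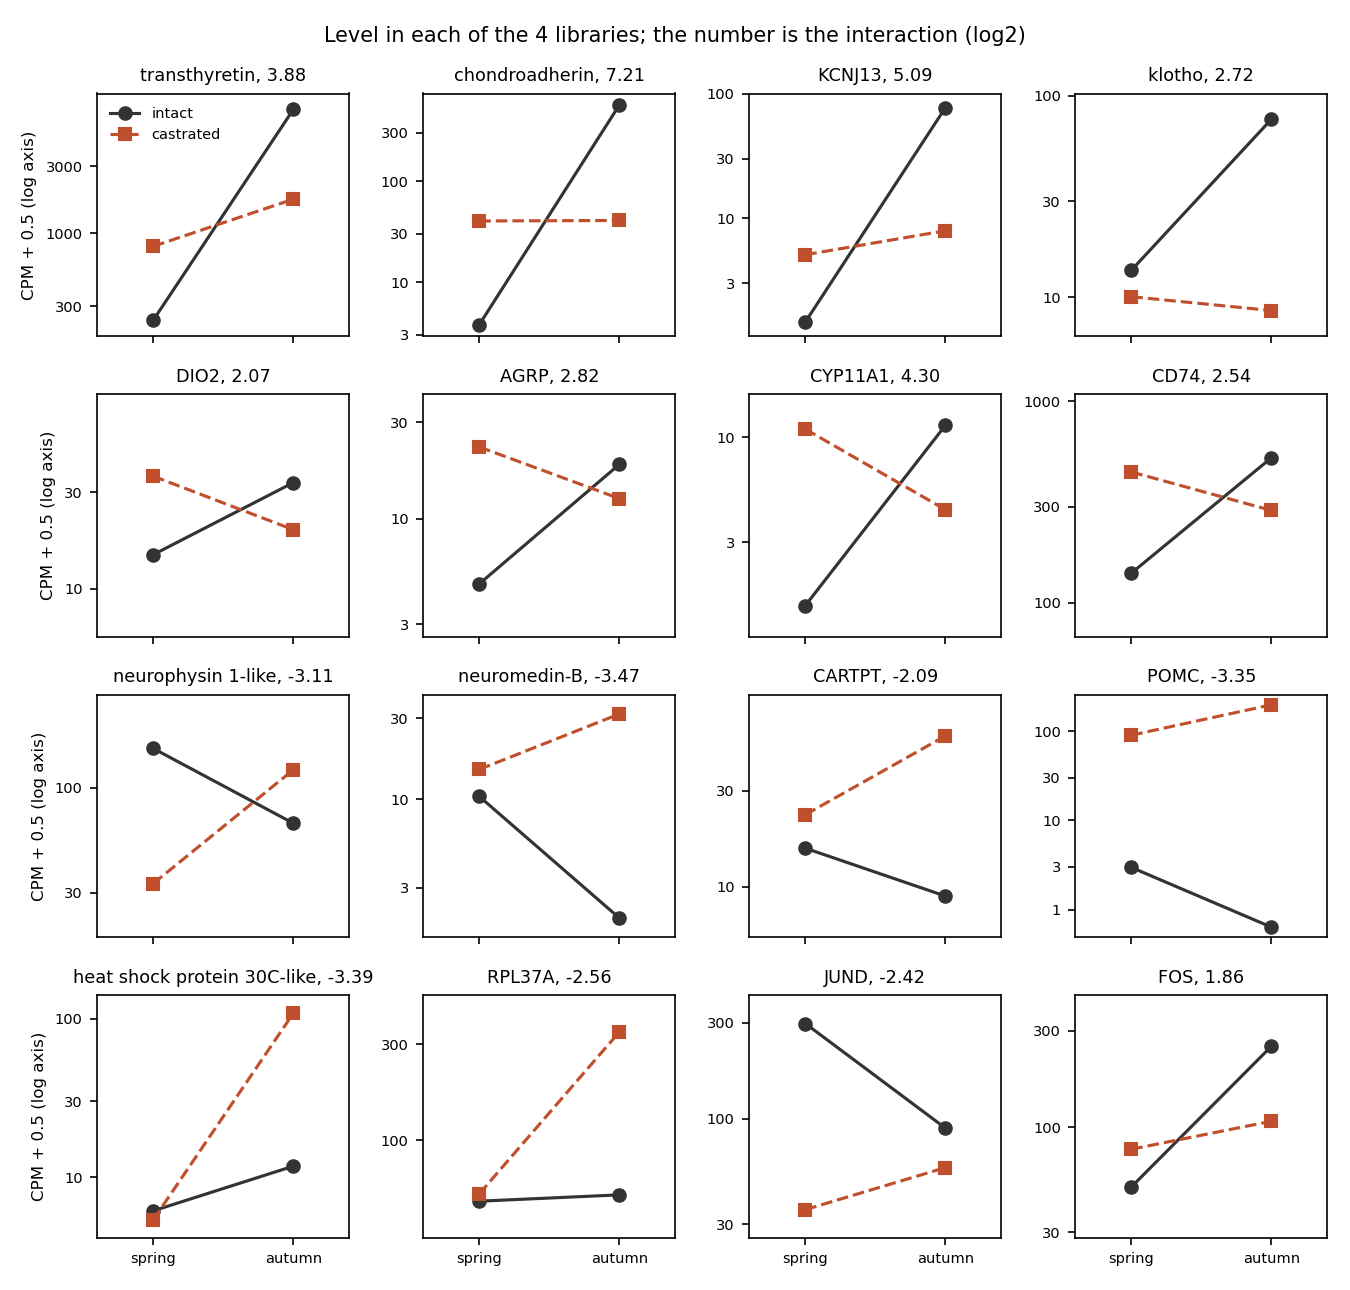
Level of 16 genes in each library, as CPM + 0.5 on a log axis, with spring on the left and autumn on the right of each panel. Black circles joined by a solid line are the intact and red squares joined by a dashed line the castrated libraries, each a single library, and the number in a panel title is the interaction. Lines with different slopes show the interaction: TTR climbs from 239 to 7622 CPM in intact birds, and RPL37A from 53.7 to 344 CPM in castrated birds.

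Crossing genes had castrated birds at least 2-fold above intact birds in one season and at least 2-fold below them in the other. There were 22 (0.245% of genes) with castrated birds above in spring and below in autumn, and 5 (0.0557%) with the reverse. CHD7, a chromatin remodeller whose loss in humans impairs the development of gonadotropin-releasing hormone neurons, had 14, 349, 355 and 172 counts and an interaction of 5.85 (5.34 to 6.95), or 10.19 on its most abundant contig alone. Spring intact was low and the other 3 libraries were high. KCNH6, a voltage-gated potassium channel of the ERG family, stood at 46.4, 38.8, 143 and 2.28 CPM (5.43, 5.05 to 6.32; 3.59 in the authors' TPM), so the 2 castrated libraries lay at opposite ends. The organic anion transporter SLCO3A1 had 16, 173, 82 and 75 counts (3.77), and phosphomannomutase 2, an enzyme of glycosylation, 13, 68, 68 and 27 counts (3.77). The RNA-binding protein heterogeneous nuclear ribonucleoprotein L-like stood at 8.22, 59.4, 25 and 17.5 CPM (3.28, or 7.22 on its most abundant contig). CFTR, the chloride channel of secretory epithelia, had 17, 93, 47 and 26 counts (3.44, 2.76 to 4.78). Spring intact was the lowest library for CHD7, SLCO3A1, phosphomannomutase 2, the L-like ribonucleoprotein and CFTR. In each of these 5 the intact libraries differed more from each other than the castrated ones.

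Genes that crossed the other way were few. The spindle assembly abnormal protein 6 homolog, a scaffold of the centriole, had 163, 12, 30 and 183 counts and an interaction of -5.39 (-6.78 to -4.79). Spring intact and autumn castrated stood together at 22.3 and 18.1 CPM, above 1.62 and 4.29 CPM. Myomesin-2, a sarcomere protein of muscle, had the same arrangement with 81, 20, 33 and 107 counts (-2.94). The lipid kinase phosphatidylinositol 3-kinase catalytic subunit type 3 had 109, 31, 42 and 96 counts (-2.34). Alpha-2-macroglobulin receptor-associated protein, a chaperone of lipoprotein receptors, differed in that autumn castrated stood alone at 82.4 CPM, against 5.30 to 19.4 CPM in the other libraries (-3.14). The fifth crossing gene has an uncharacterized protein name. With at least 50 counts required in every library, 5 and 0 crossing genes were left.

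FSHB, CGA, GH1 and PRL had 0 to 2 counts in both intact libraries, so their interactions rest on how the 2 castrated libraries differed from each other. The beta subunit of follitropin (FSHB), which with the alpha chain forms follicle-stimulating hormone, had 0, 1, 1035 and 6 counts. The common alpha chain of the glycoprotein hormones (CGA) had 0, 2, 3637 and 328 counts. Against 3 counts in the spring intact library these are at least 360-fold and at least 1267-fold higher in spring castrated birds. Within castrated birds the log2 level was higher in spring than in autumn by 7.09 for FSHB and by 3.98 for CGA. Both gonadotropin chains were thus far higher in the spring castrated library.

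Hormones of other pituitary cells had more counts in the autumn castrated than in the spring castrated library. Pro-opiomelanocortin (POMC), the precursor of corticotropin and melanocortins that hypothalamic neurons also make, had 18, 1, 624 and 1980 counts (-3.35, -7.18 to -2.37). Its level of 196 CPM in the autumn castrated library was above the 89.3 CPM of the spring castrated one. Somatotropin (GH1) had 1, 0, 385 and 1872 counts, with an interval from -7.97 to 1.27 that holds 0. GHRHR, the receptor through which growth hormone-releasing hormone acts on somatotrophs, had 1, 0, 22 and 182 counts. Prolactin (PRL) had 1, 0, 481 and 826 counts and stood at 68.8 and 81.8 CPM in the castrated libraries, a log2 difference of -0.25. In the thyrotropin-releasing hormone receptor TRHR the counts were 62, 33, 30 and 89 (-1.82). Of 11 measured pituitary genes, 2 were positive and 4 negative at 2-fold, beside 4.93% and 6.6% of all genes, with a median of -0.00. FSHB, CGA, GH1, GHRHR, PRL and POMC reached the abundance limit through the castrated libraries alone. The tally therefore says little about an interaction in these genes. LHX3 and PITX1, regulators of pituitary cell identity under the abundance limit, had 0, 0, 26 and 29 counts and 0, 0, 35 and 23 counts. POU1F1, the regulator of somatotrophs, lactotrophs and thyrotrophs and also under the limit, had 35, 0, 51 and 62 counts, so it was present in the spring intact library. The summed pituitary level was 663, 679, 2102 and 1710 CPM. In the intact libraries most of this sum came from chromogranin-A (CHGA), at 410 and 424 CPM, and PCSK1, at 195 and 197 CPM. It is therefore no measure of the hormone genes there. A different share of pituitary tissue and a different level per pituitary cell cannot be told apart here.

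The receptors through which sex steroids act showed no interaction of 2-fold. Aromatase (CYP19A1), which turns androgens into oestrogens in the brain, stood at 33.7, 26.9, 6.30 and 4.95 CPM. Its interaction was -0.00 (-0.62 to 0.66), because the castrated library was lower by nearly the same ratio in both seasons. The summed telencephalon markers were lower in both castrated libraries too. Castration and tissue content cannot be told apart in the aromatase difference. The androgen receptor had 32.1, 18.4, 26.8 and 23.9 CPM (-0.62, -1.05 to -0.22). Interactions of the oestrogen receptors ESR1 and ESR2 were -0.28 (-0.87 to 0.32) and 0.05 (-0.54 to 0.68), and that of the progesterone receptor was -0.16 (-0.80 to 0.53). These intervals do not show that the receptors respond alike in the 2 seasons, since bird-to-bird variation is not in them. Tachykinin precursor TAC1, the source of substance P and neurokinin A, was highest in spring intact birds, at 39.7 CPM against 7.56, 3.86 and 2.77 CPM (-1.90, -2.76 to -1.04). SRD5A2, a 5-alpha reductase that makes dihydrotestosterone, stood at 13.3, 5.81, 7.59 and 7.13 CPM (-1.04), and lay at -0.85 with library totals and at -1.69 on its most abundant contig.

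CYP11A1, the side-chain cleavage enzyme that starts steroid synthesis from cholesterol, was the one positive gene of the gonadal list. It rested on 7, 81, 73 and 39 counts spread over 21 contigs, with 4.30 (3.63 to 6.06). Spring intact stood alone at 0.959 CPM below 10.9, 10.4 and 3.86 CPM. Altogether 19 gonadal axis genes were measured, of which 1 was positive and 2 negative, beside 4.93% and 6.6% of all genes, and the median was -0.16. The precursor of gonadotropin-releasing hormone (GNRH1), at the head of the axis, was under the abundance limit with 11, 42, 17 and 2 counts, and so was STAR, which delivers cholesterol to CYP11A1, with 0, 0, 1 and 1 counts.

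On the thyroid and photoperiod list, DIO2 joined TTR and CGA as the positive members. The deiodinase stood at 14.2, 33.1, 35.6 and 19.1 CPM, a crossed profile in which spring castrated and autumn intact were the higher libraries (2.07, 1.68 to 2.54). Castrated birds were above intact birds by 1.29 on the log2 scale in spring, and the difference was -0.78 in autumn. The other 13 of 16 measured genes stayed within 2-fold, among them the thyrotropin receptor TSHR (-0.38), the thyroid hormone receptor THRA (-0.15), the thyroid hormone transporter SLCO1C1 (0.06), and EYA3 (-0.00), a coactivator of the thyrotropin beta gene. The list median was 0.06, and 4.93% of all genes were positive at 2-fold. CGA reached the abundance limit through the castrated libraries alone. TSHB itself was under the limit, with 0, 0, 7 and 35 counts. DIO2 is also on the list of tanycytes and astrocytes, and among those 10 genes it alone reached 2-fold (median 0.14).

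Peptides of feeding and energy balance had interactions in both directions. Agouti-related protein (AGRP), the hunger-driving melanocortin antagonist of the arcuate nucleus, stood at 4.25, 18.1, 22.2 and 12.1 CPM (2.82, 2.29 to 3.61). Spring intact birds alone were low. Cocaine- and amphetamine-regulated transcript (CARTPT), a satiety peptide, stood at 15.1, 8.51, 22.3 and 55.6 CPM (-2.09, -2.65 to -1.62), with autumn castrated birds alone high. Neuromedin-B, a bombesin-like peptide known to reduce feeding in rodents, had 72, 11, 101 and 316 counts (-3.47, -4.74 to -2.83). AGRP and CARTPT thus had opposite interactions. Galanin (37.9, 16.1, 21.9 and 26.7 CPM; -1.50) and cholecystokinin (37.3, 34.6, 40.2 and 78 CPM; -1.05, or -0.85 with library totals) were negative as well. The ghrelin receptor GHSR had -1.18 (-0.99 with library totals), the neuropeptide Y receptor NPY1R 1.19, and NPY itself -0.73. Of 32 genes, 3 were positive and 6 negative, POMC included, beside 4.93% and 6.6% of all genes, and the median was -0.12. POMC reached the abundance limit through the castrated libraries alone. Contig length moved with this list too: 4 of the 10 genes in the class of shortest contigs were negative (median -0.85), against 2 of the other 22 (median 0.07), and its part was not tested. The orexigenic peptide QRFP, under the abundance limit, had 47, 2, 0 and 67 counts.

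Neurophysin 1-like and growth hormone-releasing hormone, of the neurosecretory system, had negative interactions of at least 2-fold. A further entry, oxytocin-neurophysin 1-like, is not described here, and neither neurophysin entry was paired with a gene symbol. Neurophysin 1-like, which the match list names for the carrier protein of an oxytocin-family peptide, stood at 156, 66.0, 32.9 and 122 CPM (-3.11, -3.38 to -2.87). Spring intact and autumn castrated birds were high, and spring castrated birds were lowest. Growth hormone-releasing hormone (GHRH, listed as somatoliberin) stood at 49.4, 23.6, 33.6 and 50.4 CPM (-1.63, -1.99 to -1.30). Spring intact and autumn castrated birds were again the higher pair, while autumn intact birds were lowest. Among the 9 measured genes for vasotocin, mesotocin, opioids and related peptides, GHRH was the 1 negative gene and the somatostatin receptor SSTR2 the 1 positive gene (1.01, or 0.23 on its most abundant contig). The opioid precursors PDYN (-0.31) and PENK (-0.13) stayed within 2-fold. Over all genes 4.93% were positive and 6.6% negative.

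Immediate early genes, which neurons transcribe within minutes of activity, were on balance positive. Of 20 measured, 6 were positive, 2 negative and 17 above 0, with a median of 0.75, beside 4.93% positive and 6.6% negative among all genes. FOS stood at 50, 251, 77.1 and 106 CPM (1.86, 1.64 to 2.09) and EGR1 at 213, 747, 148 and 134 CPM (1.95, 1.81 to 2.09). NR4A3 stood at 6.71, 58.6, 5.72 and 13 CPM (1.92), and its most abundant contig alone gave 0.37. Autumn intact birds were highest for these 3, and also for ARC (1.14), EGR4 (1.99) and NR4A1 (1.35). JUND, a more steadily expressed partner of FOS, went against them at 296, 89.4, 34.9 and 56.7 CPM (-2.42, -2.68 to -2.18). JUND was spread over 5 contigs, and its interaction was -0.19 in the authors' TPM and -9.87 on the most abundant contig alone. NPAS4, induced by calcium entry, had 77, 32, 26 and 58 counts (-1.76). Both of these negative genes were highest in spring intact birds. The list's summed level was 1734, 2890, 905 and 954 CPM.

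Clock genes were within 2-fold, BHLHE40 excepted, a repressor of CLOCK and BMAL1 that lay at the limit with 1.0 (0.64 to 1.39). Of 17 measured, 1 was positive and 0 negative at 2-fold, beside 4.93% and 6.6% of all genes. Of the 17, 10 lay above 0, and the median of 0.34 became -0.04 in the authors' TPM. Opposite signs were found for CRY1 (0.54) and CRY2 (-0.64), both repressors of the loop, and negative values for the nuclear receptors NR1D1 (-0.61) and NR1D2 (-0.86). The sources used here do not give the hour of sampling.

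Markers of brain regions next to the hypothalamus differed in how far they entered the interaction. Of 16 measured thalamus, midbrain and hindbrain genes, 5 were positive and 1 negative, beside 4.93% and 6.6% of all genes, with a median of 0.53, or 0.36 with counts of 0 set at 3. LMX1B, a regulator of serotonin and dopamine neurons, had 13, 98, 158 and 151 counts (3.17, 2.56 to 4.32). GATA3 stood at 5.48, 13.1, 37.5 and 20.6 CPM (2.03) and GATA2 at 3.70, 9.18, 28.6 and 17.2 CPM (1.92, or 0.97 on its most abundant contig), both known from GABA neurons of the midbrain in mice. Spring intact was the lowest library in all 3. The other 2 positive genes reached the abundance limit through the castrated libraries alone. PAX2 had 0, 2, 467 and 293 counts, with an interval from -0.88 to 7.89, and HOXD3 had 0, 0, 152 and 101, with an interval from -4.57 to 6.77, so that both intervals hold 0. HOXA2 (0, 1, 404 and 418 counts) and HOXA3 (0, 0, 357 and 319) reached the limit in the same way. So did EN1 (1, 1, 286 and 294 counts) and SLC6A4 (3.42, 2.97, 218 and 128 CPM). Their values of 0.82, 0.69, 0.48 and 0.59 entered the median. The tally and the median therefore say little about an interaction in these genes. With 50 counts required in each library the list median was -0.05. Telencephalon markers gave 0 positive genes and 1 negative gene of 19, LHX8, on 388, 287, 3 and 16 counts.

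Of 29 genes of GABA and glutamate signalling, 1 reached 2-fold (11.5% of all genes did so in either direction), the NMDA receptor subunit GRIN1 at 114, 129, 23.5 and 11.1 CPM (1.23, or 0.31 in the authors' TPM), and the median was 0.03. Of 28 monoamine genes, 2 were positive and 2 negative, beside 4.93% and 6.6% of all genes, with a median of 0.21. The negative ones were enzymes of catecholamine synthesis, tyrosine hydroxylase (TH) at 9.45, 4.19, 17.3 and 20 CPM (-1.29, -2.06 to -0.68) and aromatic amino acid decarboxylase (DDC) at 29.2, 9.05, 70 and 75.2 CPM (-1.74, -2.21 to -1.36). Autumn intact birds were lowest for both. The most abundant contig alone gave -0.54 for DDC and -1.95 for TH. Dopamine beta-hydroxylase (DBH), a further enzyme of that pathway, had 11, 4, 116 and 130 counts and stayed within 2-fold (-0.59, -2.62 to 0.61). Positive members were the serotonin receptor HTR2A (39.3, 58.3, 19.5 and 10.5 CPM; 1.42) and the serotonin-synthesis enzyme TPH1 (1.01), whose most abundant contig alone gave -1.48.

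Genes of microglia, the resident macrophages of the brain, were largely above 0, and myelin genes largely below. CD74, the invariant chain of class II antigen presentation, stood at 140, 524, 445 and 287 CPM (2.54, 2.42 to 2.66), with spring intact alone low. The microglial growth factor receptor CSF1R stood at 44.1, 70.1, 70.6 and 48.2 CPM (1.21, 0.95 to 1.49; 0.75 on its most abundant contig). Of 12 microglial genes 11 lay above 0, 2 were positive at 2-fold (beside 4.93% of all genes), and the median was 0.36. Of 14 oligodendrocyte genes 3 lay above 0, with a median of -0.52. Ermin (ERMN), a cytoskeletal protein of late oligodendrocytes, stood at 56.2, 40.9, 137 and 321 CPM (-1.68, -1.92 to -1.44), and fatty acid 2-hydroxylase (FA2H), which makes myelin lipids, at 23.3, 15.8, 53.8 and 74.8 CPM (-1.02). Myelin basic protein (MBP, -0.47) stayed within 2-fold. Serotransferrin, on the same list, was its 1 positive member.

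The largest group of negative genes had autumn castrated birds alone at the top, and genes of translation and respiration were among them. Of 27 cytoplasmic ribosomal protein genes collected by protein name, 19 reached the abundance limit. Each of these 19 lay below 0, and 7 were negative at 2-fold, beside 6.6% of all genes. Their median was -0.90, against -0.02 for all genes. RPL37A (60S ribosomal protein L37a) stood at 49.3, 53.1, 53.7 and 344 CPM (-2.56, -2.83 to -2.32), and RPL29 (60S ribosomal protein L29) at 23.4, 22, 21.2 and 62 CPM (-1.61, -2.04 to -1.23). The first 3 libraries were nearly level in both genes. Of 53 oxidative phosphorylation genes, the mitochondrial respiratory chain and ATP synthase, 15 were negative and 0 positive, beside 6.6% and 4.93% of all genes. Of the 53, 8 lay above 0, and the median was -0.76. The complex I subunit NDUFB9 stood at 77.5, 51.4, 99 and 312 CPM (-2.24, -2.47 to -2.02). NDUFB6, also of complex I, had -2.44, but its most abundant contig alone gave 1.55. Mitochondrial ribosomal proteins followed more weakly, with 6 negative and 0 positive of 49, beside 6.6% and 4.93% of all genes, and a median of -0.34. The summed cytoplasmic ribosomal level was 2472, 2464, 3024 and 5244 CPM.

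Contig length moved with these negative interactions. Among the 1794 genes with the shortest main contigs 12.4% were negative, against 5.14% of the other 7176. Within the short class, 5 of 12 cytoplasmic ribosomal genes (41.7%) and 9 of 31 oxidative phosphorylation genes (29%) were negative. Among the longer contigs, 2 of 7 (28.6%) and 6 of 22 (27.3%) were. Over all alternatives tried, the ribosomal median lay between -0.95 and -0.70 and the respiratory median between -0.88 and -0.56. The autumn castrated library also had the most counts. After thinning all libraries to the smallest total 584 genes were negative, 549 of them shared with the 592. Thinning draws at random from the same counts and leaves the expected ratios unchanged, so no conclusion about depth is drawn from it. Proteasome genes, 17 in all, held 0 genes beyond 2-fold in either direction (median -0.26), and so did 17 glycolysis genes (median -0.06). Among all genes 11.5% were beyond 2-fold, so lists of this size would hold few such genes.

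A few chaperones and genes of growing neurons were also highest in autumn castrated birds. Heat shock protein 30C-like, a small heat shock protein first known from frogs, stood at 5.62, 11.2, 4.87 and 107 CPM (-3.39, -4.18 to -2.73). Alpha-crystallin B (CRYAB), a small chaperone of glia, had 359, 175, 734 and 1844 counts (-1.84), and HSPA2 stood at 252, 312, 402 and 1258 CPM (-1.34). Of 21 heat shock and folding genes, 3 were negative and 0 positive, beside 6.6% and 4.93% of all genes. Their median of -0.17 became 0.04 with library totals. Tubulin beta-3 (TUBB3), the neuronal tubulin, stood at 6.57, 6.48, 16.3 and 75.5 CPM (-2.20, -2.87 to -1.59). Stathmin (STMN1), which destabilises microtubules, stood at 1127, 884, 1338 and 2703 CPM (-1.36, or -0.80 on its most abundant contig). Against these, the neural progenitor factors SOX4 (6.99, 13.5, 5.30 and 2.18 CPM; 2.02) and SOX11 (12.9, 13.2, 10.7 and 4.26 CPM; 1.28) were lowest in autumn castrated birds. Of 12 neurogenesis genes, 3 were positive and 3 negative, beside 4.93% and 6.6% of all genes.

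**Figure D4:**
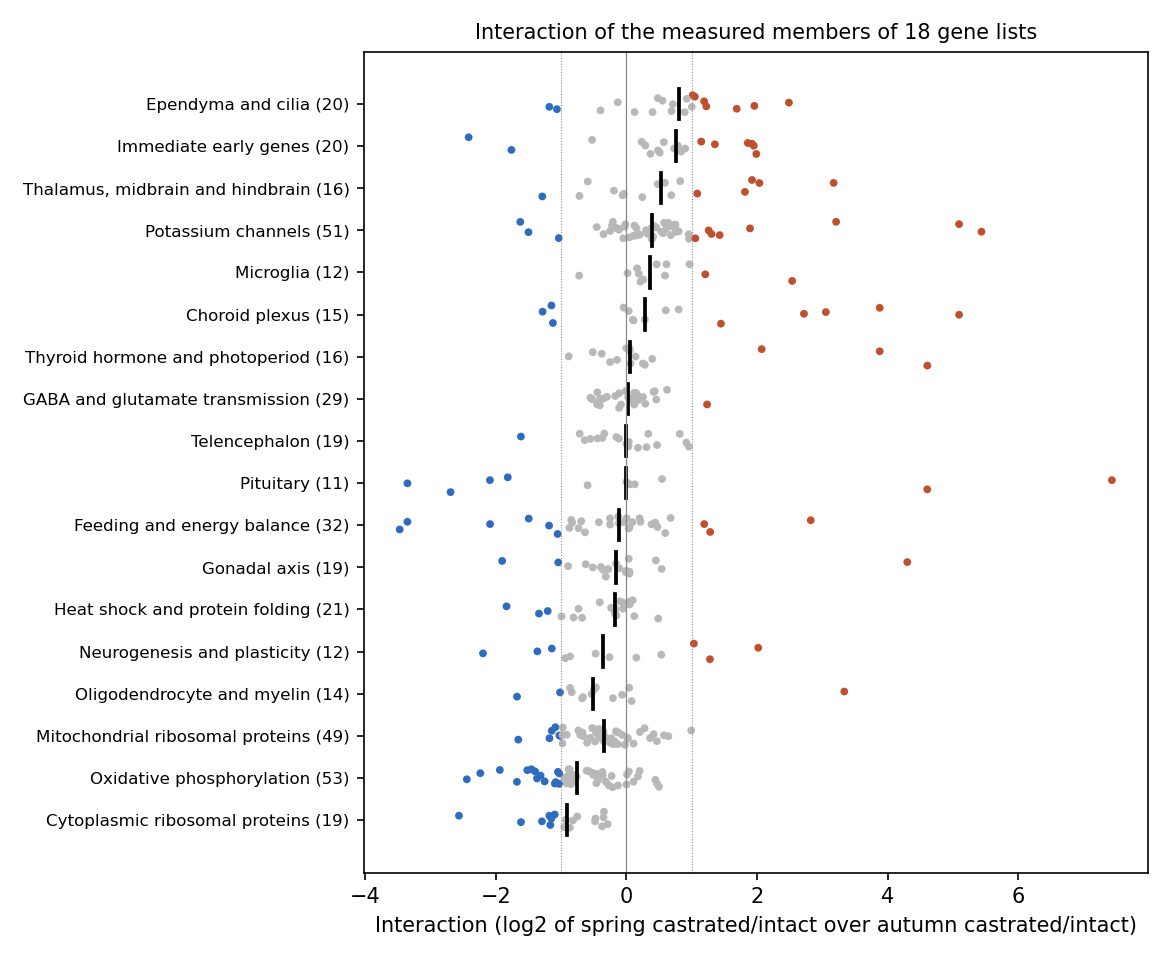
Interaction (log2, horizontal) of every measured member of 18 gene lists, with the number of members in brackets. Points are genes, red at 1 or more, blue at -1 or less and grey between, short black bars are list medians, and dotted lines mark 2-fold. Cytoplasmic ribosomal proteins lie wholly below 0 (median -0.90), while the listed ependyma and cilia genes (0.80) and immediate early genes (0.75) lie mostly above it.

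Other leading negative genes had autumn intact birds as the low library. Helicase ARIP4, a chromatin remodeller that binds the androgen receptor, had 175, 17, 188 and 1047 counts, or 24.0, 2.30, 26.9 and 104 CPM. Its interaction was -5.06 (-6.03 to -4.55). Structural maintenance of chromosomes protein 4, a condensin core subunit, stood at 97.4, 11.2, 135 and 128 CPM (-2.98, -3.38 to -2.68). Adhesion G-protein coupled receptor D2 had 116, 36, 136 and 532 counts (-3.03), and transmembrane protein 163, a zinc transporter of synaptic vesicles, 37, 11, 100 and 560 counts (-3.40). For ARIP4, adhesion G-protein coupled receptor D2 and transmembrane protein 163 the autumn castrated library was also the highest of the 4.

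Spring castrated birds were the low library for a further set. UBX domain-containing protein 6, a cofactor of the p97 segregase, had 119, 114, 13 and 283 counts (-3.67, -4.81 to -3.07; -6.18 on its most abundant contig). Bromodomain-containing protein 9, a subunit of a BAF chromatin remodelling complex, had 163, 106, 11 and 122 counts (-3.22, or -5.62 on its most abundant contig). Multiple PDZ domain protein (MPDZ), a scaffold of tight junctions and synapses, had 2056, 1613, 5 and 379 counts, an interaction of -5.34, or -1.57 in the authors' TPM. Synaptic vesicle glycoprotein 2B had 195, 213, 0 and 210 counts, so that the spring castrated library was at least 62.2-fold lower than the spring intact one. DnaJ homolog subfamily B member 14, a chaperone of the endoplasmic reticulum, differed in having spring intact birds high, at 186 CPM against 48.2, 30.1 and 60.1 CPM (-2.92).

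Genes with under 10 counts in a library held some of the widest differences. Palmitoyltransferase ZDHHC2, which attaches palmitate to synaptic proteins, had 107, 203, 126 and 0 counts, at least 92.3-fold lower in castrated than intact birds in autumn. Endonuclease III-like protein 1, a DNA repair glycosylase, had 33, 0, 29 and 187 counts, at least 45.7-fold higher in castrated birds in autumn. The scaffold IQGAP3 had 3, 75, 114 and 30 counts, and muscular LMNA-interacting protein 4, 177, 6 and 4. Integrator complex subunit 11, which cleaves nascent small nuclear RNA, had 48, 2, 33 and 139 counts, and receptor of activated protein C kinase 1, a protein of the small ribosomal subunit, 49, 8, 47 and 293. Autumn intact was the lowest library for the last 2 and for endonuclease III-like protein 1. In all, 25 genes with an interaction of 2-fold had 0 counts in a library.

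Of the leading positive genes not yet given, 2 had spring intact birds alone low. WNT1-inducible-signaling pathway protein 3, a matricellular protein, had 14, 169, 149 and 116 counts (4.13, 3.57 to 5.27), and geranylgeranyl transferase type-1 subunit beta, which prenylates small GTPases, 11, 75, 269 and 187 counts (3.44, 2.81 to 4.68; 5.36 on its most abundant contig). AN1-type zinc finger protein 3, also a crossing gene, had autumn castrated birds low instead, with 60, 117, 147 and 25 counts (3.76, 3.25 to 4.75).

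Among families collected by protein name, potassium channels leaned to positive values. Of 51 measured, 8 were positive and 3 negative, beside 4.93% and 6.6% of all genes, with a median of 0.38. Besides KCNH6 and KCNJ13, the fast delayed rectifier KCNC1 stood at 41.2, 39.6, 41.2 and 10.3 CPM (1.89, 1.54 to 2.33), with autumn castrated birds alone low. The M-current channel KQT member 3 had 437, 430, 43 and 2 counts (3.21), while KQT member 5 had 645, 314, 36 and 80 (-1.63). Collagens and laminins, 37 in all, held 5 positive and 3 negative genes, beside 4.93% and 6.6% of all genes. Collagen alpha-1(VII) chain was at -2.37, but its most abundant contig alone gave 3.03. Zinc finger proteins (6 positive and 4 negative of 97), cadherins (2 and 4 of 52) and solute carriers (3 and 3 of 49) had medians of 0.09, 0.26 and -0.13, beside 4.93% positive and 6.6% negative among all genes. Markers of meninges, vessels and blood stayed within 2-fold in all 12 genes measured, as did 88.5% of all genes.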

How the data were processed

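Per the file headers, each library's deposited table gives estimated counts and TPM per contig. Both come from kallisto, and the counts are not normalized, so reads were shared out among similar contigs. A deposited list of matches to proteins of the collared flycatcher gives an e-value, a bit score and percent identity for each match. Trimmomatic and kallisto are named in the submitters' processing notes, and the assembler is not named there. The match of highest score was kept for each contig where its e-value did not exceed 1e-05, and 50994 of 507906 contigs had one. Estimated counts were summed by protein name, rounded, scaled by TMM factors (from 0.925 in autumn castrated to 1.04 in autumn intact) and raised by 0.5 CPM before log2, which understates differences of low genes. A count of 0 stands for at most 3 counts, 0.297 to 0.429 CPM. Intervals are approximate, cover counting error only, and take reads as independent molecules although no molecular identifiers were used.

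The members, lists and rules were chosen with earlier results of these data known. Of 551 symbols, 418 were paired by hand with an equal protein name, and 345 of these reached 5 CPM. A further 10 families were collected by name. Named genes were, in each direction, the 12 of farthest interval with at least 10 counts in each library, 5 with fewer counts and up to 8 crossing genes, then up to 4 members of each list, members of the plexus, thyroid, gonadal, immediate early, clock and feeding lists, and the 3 of widest gap for each profile. Genes under 5 CPM and list members beyond that rule were named after their values were seen. Values were computed in Python 3.11.15 with pandas 2.3.3 and checked on simulated counts.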

Additional observations from a re-analysis of the deposited data

Results flagged for a closer look

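In 17 genes named above, castrated and intact birds differed at least 2-fold in opposite directions in the 2 seasons. With 1 library per group this difference between seasons was not tested. Castrated birds were higher in spring and lower in autumn for chondroadherin (interaction 7.21), chromodomain-helicase-DNA-binding protein 7 (5.85), potassium voltage-gated channel subfamily H member 6 (5.43), transthyretin (3.88), phosphomannomutase 2 (3.77), solute carrier organic anion transporter family member 3A1 (3.77), AN1-type zinc finger protein 3 (3.76), cystic fibrosis transmembrane conductance regulator (3.44), heterogeneous nuclear ribonucleoprotein L-like (3.28) and cilia- and flagella-associated protein 61 (2.49). They were so too, with under 10 counts in the spring intact library, for IQGAP3 (ras GTPase-activating-like protein IQGAP3, 5.82), inward rectifier potassium channel 13 (5.09) and the cholesterol side-chain cleavage enzyme, mitochondrial (4.30). The reverse held for spindle assembly abnormal protein 6 homolog (-5.39), alpha-2-macroglobulin receptor-associated protein (-3.14), myomesin-2 (-2.94) and phosphatidylinositol 3-kinase catalytic subunit type 3 (-2.34).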

How the results depend on the processing

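No paired analysis was possible because each group has 1 library. Of 1121 values for named genes with a 2-fold interaction under 13 alternatives, 1117 kept their sign and 1078 stayed beyond 2-fold. Many of these genes were picked for wide values. Over all genes the overlap with the 442 and 592 was smaller. In the authors' TPM, which left 6230 genes, 123 positive and 248 negative genes were shared. On the most abundant contig 310 and 424 were shared. With the most abundant contig alone, NADH dehydrogenase [ubiquinone] 1 beta subcomplex subunit 6 turned to 1.55, collagen alpha-1(VII) chain to 3.03, cilia- and flagella-associated protein 54 to 4.41 and tryptophan 5-hydroxylase 1 to -1.48. The 442 positive and 592 negative genes became 698 and 372 with library totals, where positive genes made up 65.2% of both in place of 42.7%. They became 712 and 892 at a mean of 1 CPM, 257 and 312 with 50 counts in each library, 210 and 372 in the authors' TPM, 912 and 1078 with the most abundant contig, 149 and 203 for genes with 80% of counts on 1 contig, and 2795 and 3107 for single contigs. The 22 and 5 crossing genes became 42 and 20 at a mean of 1 CPM, 14 and 3 at 10 CPM, 5 and 0 with 50 counts, 5 and 5 in TPM, 69 and 64 with the most abundant contig, 7 and 2 on 1 contig, and 345 and 380 for single contigs. The 5 became 1 with 2 CPM added, 3 after thinning and 10 with matches at an e-value of at most 1e-20 and 70% identity. The causes were not tested, apart from the smaller or larger number of genes that some settings admit by construction. DESeq2 size factors, 0.1 CPM added and names merged without the ending -like kept all 4 counts within 1.5 times. Low counts limit the interval of 90 genes with under 10 counts in a library.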

Other observations

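Contigs without a protein match were left out of the genes above. At a mean of at least 5 CPM there were 26387 of them, and 15.8% had a positive and 17% a negative interaction of 2-fold. Single contigs with a match, 16740 at the same limit, gave 16.7% and 18.5%. Genes with an uncharacterized protein name, 222 in all, held 13 positive and 24 negative ones (5.86% and 10.8%, beside 4.93% and 6.6% of all genes). Read as season differences, 143 of the positive genes were at least 2-fold lower in spring than in autumn in intact birds alone, and 222 of the negative genes were at least 2-fold lower in spring in castrated birds alone.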
